A study of Mus musculus with 6 samples.

Results

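The genes described here are 10 genes of MHC class II antigen presentation, chosen by symbol from a fixed list out of the 33924 genes in the deposited RNA-seq table. All 10 symbols were in the table. RNA came from RPE/choroid of C57BL/6J mice, which is the pigmented epithelium that supports the photoreceptors and, under it, the choroidal vessels. The layer was taken off the sclera once the neural retina had been removed. There were 3 young mice, labelled 1 to 2 months, and 3 aged mice, labelled 20 to 24 months in the titles and 22 to 24 months in the time label. All 6 are labelled male and wild type, with no transgene or treatment. The methods of the study give a higher age for the young group and name both sexes. The libraries were made from total RNA with ribosomal RNA removed and without poly(A) selection.

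The value available for each gene is the authors' mean normalized count over all 6 libraries, young and aged together. The other columns of the table hold the authors' own test of age and were left out by choice. No value per mouse was analysed here, so the levels below carry no SD and no test, and they say nothing about a difference between young and aged mice. A gene expressed in only one of the age groups would stand in this mean at a value below its level in that group. Depth per library is unknown from the table.

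MHC class II molecules show peptides from engulfed material to CD4 T cells. An alpha and a beta chain pair in the endoplasmic reticulum with the invariant chain, which fills the groove and guides the complex to endosomes, where proteases cut it down to a short fragment. H2-DM then exchanges that fragment for antigen peptide, and H2-O restrains H2-DM. The co-activator CIITA switches these genes on together through a conserved set of promoter elements, and CD80 and CD86 give the T cell its second signal. Macrophages, dendritic cells and B cells are the usual sites of this program.

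The promoter elements are shown first because class II chain genes are known for sharing them. Promoters of 6 members were searched, those of H2-Aa, H2-Eb1, H2-DMa, H2-DMb1, H2-Oa and Cd80. These RefSeq promoters (GRCm38.p6) each ran from 250 bases before to 50 bases after the gene start. They were searched on both strands for GNAAC, letters found in the X box of class II promoters, followed on the same strand by GATTGG, the letters of the Y box, with 20 to 40 bases between the starts of the motifs. The letters and the distance were chosen after the sequences had been read. In the stretches below, read 5′ to 3′ on the strand of the gene, capitals mark both motifs. H2-Aa lies at chr17:34287867-34287912 (minus strand), H2-Eb1 at chr17:34305768-34305812, H2-Oa at chr17:34092295-34092340 and H2-Ob, the partner of H2-Oa, at chr17:34238810-34238852 (all 3 on the plus strand).
H2-Aa: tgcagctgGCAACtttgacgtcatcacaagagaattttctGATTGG
H2-Eb1: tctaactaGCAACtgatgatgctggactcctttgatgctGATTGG
H2-Oa: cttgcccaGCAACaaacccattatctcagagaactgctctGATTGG
H2-Ob: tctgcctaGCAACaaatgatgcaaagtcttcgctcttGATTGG

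The pair was present in 4 of the 6 members searched, H2-Aa, H2-Eb1, H2-DMb1 and H2-Oa, once each and on the strand of the gene. Of all 32851 promoters, 1.21% held it on either strand and 0.597% on the transcribed strand. The letters and the distance were chosen after reading the sequences, so these shares do not test the 4 of 6. Alone, GATTGG was in 16.1% and GNAAC in 84.8% of promoters. The distance between the starts was 32 bases in H2-Aa, H2-DMb1 and H2-Oa and 31 bases in H2-Eb1. In H2-DMb1 the pair lies before the RefSeq gene start but inside the longer gene annotated by GENCODE. H2-Ob had 29 bases and H2-Eb2 had 31. No pair in this spacing was found in the promoters of H2-DMa, which has 2 entries, Cd80 or H2-DMb2. The members with the pair include the least abundant of the 10, H2-Oa, as well as some of the most abundant.

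**Figure D1:**
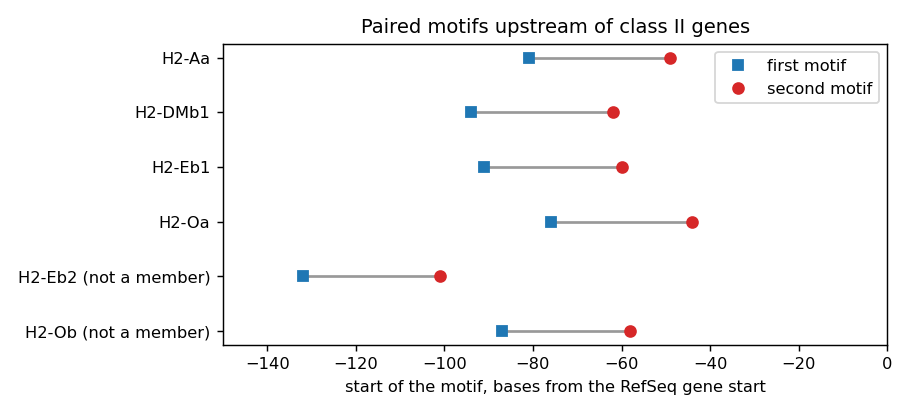
Position of the paired motifs upstream of 6 class II genes, in bases from the RefSeq gene start (squares, GNAAC; circles, GATTGG). The motif starts lie 29 to 32 bases apart in every gene drawn, while the distance to the gene start varies, with H2-Eb2 farthest upstream at -132.

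Cd74 and the classical chains were the abundant members. Cd74, the invariant chain, had a mean of 3003 normalized counts, H2-Aa, the I-A alpha chain, 2384, H2-Eb1, the I-E beta chain, 1817, and H2-Ab1, the I-A beta chain, 1615. Levels of different genes are compared per kilobase, since longer transcripts yield more reads. The methods of the study derive the normalized counts from TPM, a unit already divided by length, and the table does not settle whether that division is still in the mean. Where the order of genes changes without a second division, the undivided means are given as well. Per kilobase of the longest annotated transcript, Cd74 stood at 2130, H2-Ab1 at 1333, H2-Eb1 at 1089 and H2-Aa at 740. These levels lay at percentiles 98.3, 97.0, 96.0 and 93.4 of the 22826 genes above 0 with a known length, whose median was 46.7 per kilobase. Among the 15901 genes with a length and a mean of at least 10, the same levels lay at percentiles 97.6, 95.7, 94.2 and 90.5. By the undivided mean, the percentiles among genes above 0 were 95.5 for Cd74, 89.4 for H2-Ab1, 90.9 for H2-Eb1 and 93.6 for H2-Aa.

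The place of H2-Aa depended on the length. Its longest annotated transcript has 3223 bases, whereas its longest protein-coding transcript has 1128. Divided by the latter, H2-Aa reached 2113 per kilobase, next to the 2130 of Cd74. The ratio of H2-Aa to H2-Ab1, the chains of I-A, was 0.555 with the longest transcript, 1.59 with the longest protein-coding transcript and 1.53 with coding length. Which chain of I-A had the higher level therefore cannot be read from these means.

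The invariant chain was above H2-Ab1 by each length, with a ratio of 1.60 for the longest transcript and 1.77 for coding length. Against H2-Aa the ratio of Cd74 was 2.88 for the longest transcript and 1.01 for the longest protein-coding transcript. H2-Eb1 and H2-Ab1 were close, at a ratio of 0.817 by the longest transcript and 1.04 by coding length. With no spread over mice, none of these ratios has an error.

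The alpha chain that would pair with H2-Eb1 was listed at 0. In the table it stands as H2-Ea-ps, annotated as a polymorphic pseudogene, and C57BL/6 mice are known to lack I-E at the cell surface because this gene is not transcribed in their haplotype. H2-Eb1, its beta partner, was among the 4 highest members all the same. H2-Eb2, a beta gene beside it, had a mean of 11.0 and a level of 3.25 per kilobase. Words of 31 bases shared between H2-Eb1 and H2-Eb2 were few, and 98.9% of those of H2-Eb1 occur in no other gene.

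**Figure D2:**
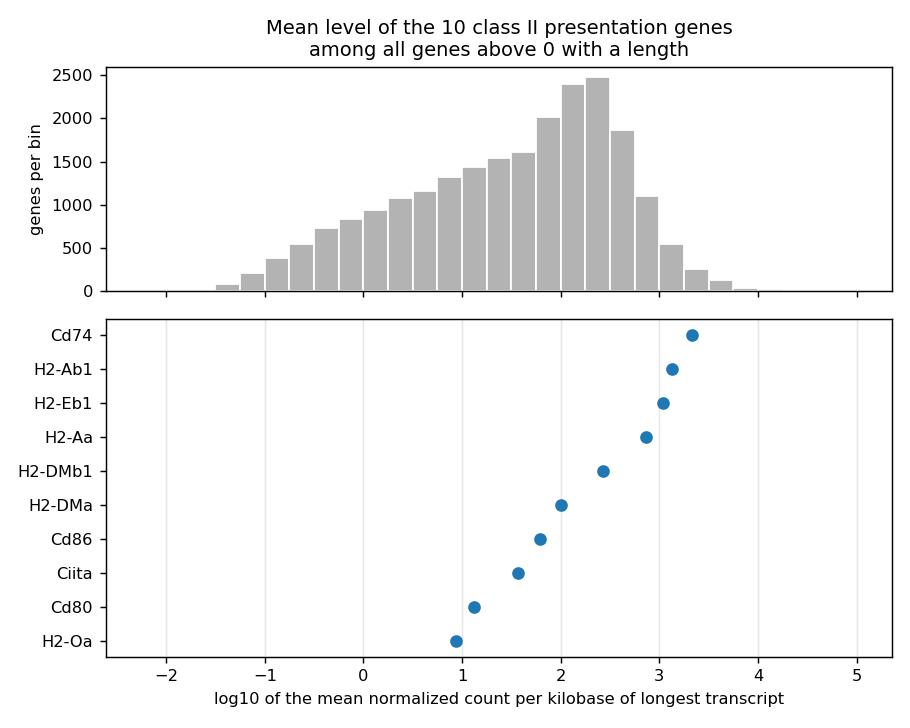
Upper panel, number of genes by log10 of the mean normalized count per kilobase, for all genes above 0 with a length; lower panel, the 10 class II members on the same axis. Cd74, H2-Ab1, H2-Eb1 and H2-Aa lie in the upper tail, and Ciita, Cd80 and H2-Oa lie to the left of the median, at percentiles 47.2, 35.3 and 30.7.

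The peptide exchange genes were lower. H2-DMb1, the DM beta chain, had a mean of 381 and a level of 271 per kilobase, and H2-DMa, the DM alpha chain, had 200.3 and 99.9 per kilobase. These are percentiles 79.8 and 61.1 of genes above 0, and 71.0 and 44.3 of genes with a mean of at least 10. The ratio of H2-DMa to H2-DMb1 was 0.369 by the longest transcript and 0.526 by coding length, and the classical beta chain H2-Ab1 was above H2-DMb1 by a factor of 4.92 by the longest transcript and 4.18 by coding length.

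The division of reads between the DM beta genes is uncertain. Only 68.6% of the 31-base words of H2-DMb1 occur in no other gene, and 517 of its 1648 words are shared with H2-DMb2, the adjacent copy, for which the share of own words is 63.4%. H2-DMb2 had a mean of 35.9 and a level of 24.2 per kilobase. For H2-DMa, 90.8% of words are its own. Its annotated span overlaps Brd2, a protein-coding gene on the opposite strand. The kit was stranded, but whether counting used the strand is not given in the sources used here, so reads of H2-DMa and Brd2 in the shared bases cannot be told apart.

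H2-Oa, the DO alpha chain, was the lowest member, with a mean of 11.5 and a level of 8.59 per kilobase, at percentile 30.7 of genes above 0 and 6.14 of genes with a mean of at least 10. Its partner H2-Ob had 57.9 and 21.7 per kilobase. DO is best known from B cells and some dendritic cells. H2-DMa exceeded H2-Oa by a factor of 11.6 by the longest transcript and 16.7 by coding length, and H2-DMb1 exceeded H2-Ob by 12.5 and 7.63. In both chains, DM was above DO under each length tried. The antisense gene BC051537 overlaps H2-Oa, and 81.7% of the words of H2-Oa occur in no other gene.

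**Figure D3:**
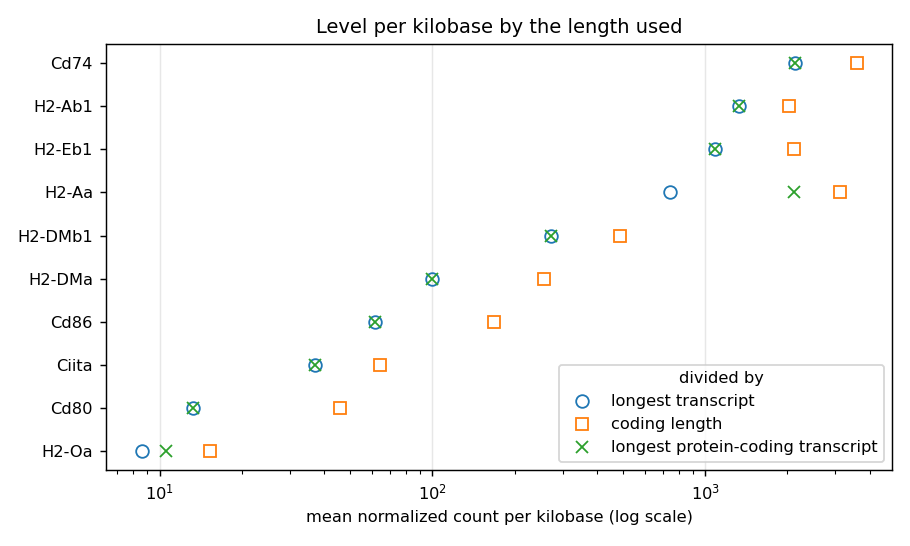
Mean normalized count per kilobase of the 10 members (log scale), divided by the longest transcript (circles), coding length (squares) or longest protein-coding transcript (crosses). H2-Aa moves from 740 to 2113 between the circle and the cross, while the circle and the cross coincide for 8 of the other genes and H2-Oa moves from 8.59 to 10.6.

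Ciita, the co-activator gene, ranked 8 of 10 members per kilobase and 6 by the undivided mean. Its mean was 223 normalized counts over a longest transcript of 6007 bases, or 37.1 per kilobase, at percentile 47.2 of genes above 0 and 24.9 of genes with a mean of at least 10. By the undivided mean Ciita stood at percentile 60.0 of genes above 0 and 40.6 of genes with a mean of at least 10. It overlaps Dexi on the opposite strand, and 97.2% of its words occur in no other gene. Genes of the DNA-binding proteins through which CIITA acts are the RFX and NF-Y subunits and Creb1. All 7 had a level per kilobase above that of Ciita, from 61.1 for Rfxank to 306 for Creb1, but by the undivided mean Rfxank, at 220.4, was below Ciita.

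The signal that induces Ciita outside professional presenting cells is interferon gamma. Ifng, the ligand gene, had a mean of 2.12 normalized counts, or 1.76 per kilobase, below every member. Its receptor subunits, kinases and downstream factors were well above Ciita, up to 881 per kilobase for Jak1, so that 6 of the 7 genes on this list had a mean of at least 10. This count stands beside 67.4% of all genes above 0 that reached a mean of 10.

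Cd86 and Cd80, the ligands of CD28 and CTLA-4, were unequal. Cd86 had a mean of 156 and a level of 61.5 per kilobase, and Cd80 had 42.1 and 13.3 per kilobase. These levels lay at percentiles 53.6 and 35.3 of genes above 0, and at 33.7 and 10.6 of genes with a mean of at least 10. Cd86 was above Cd80 by a factor of 4.64 by the longest transcript and 3.68 by coding length. Of their words, 99.8% and 99.4% occur in no other gene.

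Of the 6 other costimulatory or inhibitory ligands listed, 3 had a mean of at least 10, a share of 50% beside the 67.4% of all genes above 0. Cd274, which encodes the inhibitory ligand PD-L1, was the highest at 329 per kilobase, above both Cd86 and Cd80. Cd70 was the lowest, at 0.237 per kilobase and a mean of 0.200 normalized counts. Among 7 T cell genes of the class II co-receptor, the T cell receptor complex and the receptors of these ligands, Cd4 was highest, at 77.7 per kilobase, and Ctla4 lowest, at 1.47. Macrophages can transcribe Cd4 as well, and the T cell receptor complex genes Cd3d, Cd3e and Cd3g had means of 13.5, 11.6 and 36.8.

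Genes that prepare the invariant chain and antigen, mostly proteases, had the highest median of the pathway lists, 2169 per kilobase. All 7 genes listed had a mean of at least 100, which 48.2% of all genes above 0 reached, with Ctsd, the gene of cathepsin D, highest at 36749 per kilobase and Ifi30, a thiol reductase gene of endosomes, lowest at 441. Ctss, which encodes the cathepsin that completes the cutting of the invariant chain, stood at 15322 per kilobase, against 2130 for Cd74. RPE uses lysosomal proteases for shed photoreceptor tips, and these genes are not particular to presenting cells. The ligases March1 and March8, which remove class II from the surface, were matched to no row, as date-like names in the table could not be assigned.

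Of the 10 members, 6 lie together on the genome (GRCm38). H2-Oa, H2-DMa, H2-DMb1, H2-Ab1, H2-Aa and H2-Eb1 fall within the 252.3 kb from 34092340 to 34344645 on chromosome 17 that also hold H2-DMb2, H2-Ob, H2-Eb2 and H2-Ea-ps. H2-Ab1 occupies 34257689 to 34269419, H2-Aa 34282744 to 34287823 and H2-Eb1 34305867 to 34316674. These 3 adjacent genes had the highest levels per kilobase in the segment. The other 5 protein-coding genes inside it ran from 105.2 to 669.8 per kilobase, with a median of 207.4, and 0 of them reached H2-Eb1. By the undivided mean, 1 of them, Brd2, was above all 3, with 3119 normalized counts against 2384 for H2-Aa, the highest of the 3. Ciita (10480059 to 10528418), Cd86 (36603869 to 36666081) and Cd80 (38455561 to 38496335) are on chromosome 16, and Cd74 (60803848 to 60812652) is on chromosome 18.

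**Figure D4:**
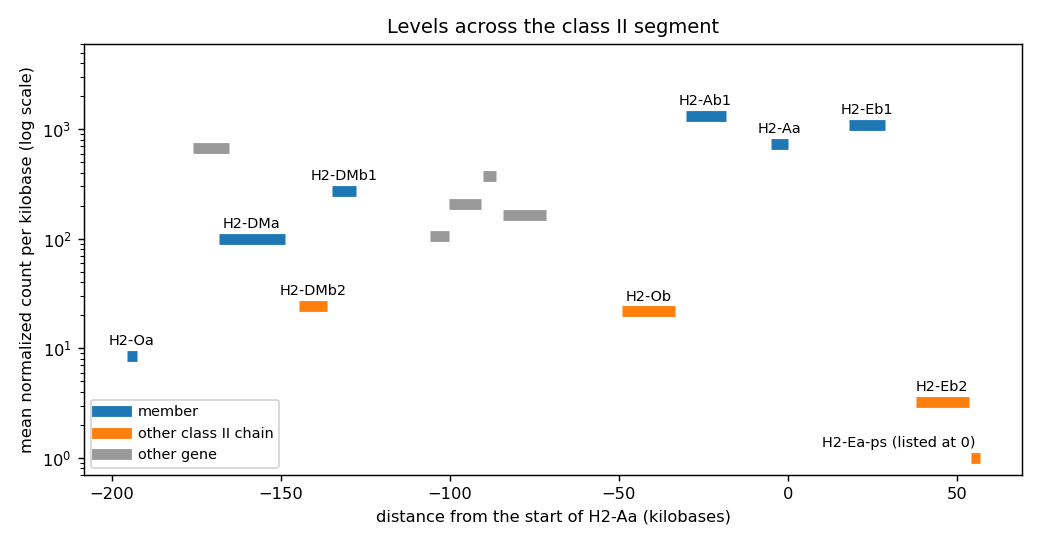
Mean normalized count per kilobase of longest transcript (log scale) of the genes in the class II segment, drawn at their distance from the start of H2-Aa. H2-Ab1, H2-Aa and H2-Eb1 lie highest, the 5 other protein-coding genes between them and H2-DMa, and H2-Ea-ps, listed at 0, is drawn at the foot of the axis.

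The tissue label was checked against marker genes. RPE markers had a median of 10797 per kilobase over 6 genes, led by Ttr at 83745, with Best1 lowest at 33.6. The 3 rod photoreceptor markers reported were also high, from 1587 per kilobase for Pde6b to 5239 for Gnat1, with the highest mean, 13165, for Sag. The source of these rod transcripts was not tested. In bulk RNA, fewer cells of a type and less RNA per cell cannot be told apart, and the libraries do not show which cells made the class II transcripts.

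Markers of presenting cells were present beside the members. All 7 macrophage markers had a mean of at least 100, beside the 48.2% of all genes above 0, with a median of 964 per kilobase and a range from 173 for Cx3cr1, a chemokine receptor gene, to 3633 for C1qa, a complement gene. Csf1r, the receptor of a macrophage growth factor, had the highest mean, 4063, and 864 per kilobase. Cd74, H2-Ab1 and H2-Eb1 were each above 5 of these 7 markers by the longest transcript. H2-Aa was above 2 of them by that length, but above 5 by coding length or by the longest protein-coding transcript. By the undivided mean, Cd74 was above 4 of the markers and the 3 classical chains were each above 2. H2-DMa, H2-Oa, Ciita, Cd80 and Cd86 were below all 7. The part of macrophages in the class II level was not tested.

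Dendritic and B cell markers were lower. All 7 dendritic cell markers had a mean of at least 10, beside 67.4% of all genes above 0, with a median of 27.5 per kilobase, from 8.44 for Xcr1 to 434 for Itgax, which macrophages can also express. Batf3, a transcription factor gene of cross-presenting dendritic cells, had the lowest mean, 14.4. At a limit of 100, 2 of the 7 passed, beside 48.2% of all genes above 0. Among 5 B cell markers, 4 had a mean of at least 10 and 0 had a mean of at least 100, the median was 12.8 per kilobase, and levels ran from 0.850 for Pax5 to 54.6 for Cd79b. Cd74 and the classical chains were above every marker of both lists per kilobase, whereas by the undivided mean H2-Ab1, at 1615, was below Itgax, at 1757. The other 6 members lay within the range of the dendritic cell markers by the longest transcript, and H2-Oa lay below all 7 of them by coding length and by the undivided mean. Endothelial markers, whose cells can carry class II, ran from 257 per kilobase for Cdh5 to 1077 for Kdr. The part of these cell types was not tested either.

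**Figure D5:**
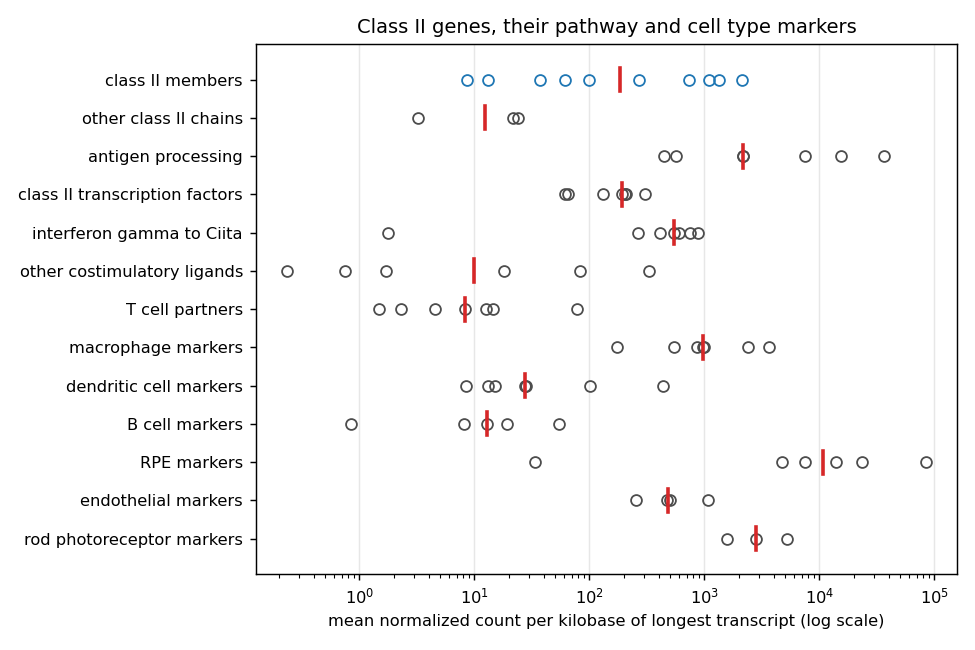
Mean normalized count per kilobase of longest transcript (log scale) for the 10 members (top row), the other genes of the pathway and the cell type markers; each circle is a gene and each red bar the median of its list. The members run from 8.59 to 2130 with a median of 185, between the macrophage and the dendritic cell medians, and H2-Ea-ps, listed at 0, counts in its list's median but has no circle.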

How the data were processed

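RNA-seq of RPE/choroid from 3 young and 3 aged mice was used. Reads were trimmed with BBDuk, mapped with STAR to Ensembl transcripts of GRCm38, quantified as TPM with Sailfish, turned into normalized counts by the total count method and compared with DESeq2 by the authors. The deposited table gives for each gene a baseMean, a signal averaged over all 6 libraries by the authors. Whether the division by length in TPM is still in it was not settled, so the undivided mean was an alternative. Its other 5 columns hold the authors' log2 fold changes, standard errors, Wald statistics, p-values and adjusted p-values for age, and were not used. There were 0 columns that name a sample, so the groups were not compared here, and the tests planned for values per library were not run.

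The mean was divided by the longest transcript of each gene in GENCODE M21 (GRCm38), matched by symbol; coding length and the longest protein-coding transcript were alternatives, the last chosen after the values were seen. Of 82 genes in 14 lists, 78 were matched by symbol, 2 (Adgre1, Sppl2a) by an older symbol in RefSeq, and 2 not at all; 1 further marker is not reported here. Words of 31 bases were compared over all GENCODE transcripts on both strands. Genes named are all members and, of each list, the highest and lowest by mean; the others named (Ctss, C1qa, Xcr1, Gnat1, the Cd3 genes and Brd2 among them) were chosen after their values were seen. Members and lists were chosen with earlier results of these data known. Steps were run in Python 3.11.15 with pandas 2.3.3 and checked on simulated data.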

Additional observations from a re-analysis of the deposited data

How the results depend on the processing

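With no values per library, no SD or interval bounds these levels, and a value was taken as moved when it changed by more than a factor of 1.5. No paired analysis was possible because single libraries are not resolved in the values used, and for the same reason no replicate was left out. The ratio of H2-Aa to H2-Ab1, 0.555 with the longest transcript, turned to 1.53 with coding length, 1.48 without division by length and 1.59 with the longest protein-coding transcript; in the same order, the ratio of Cd74 to H2-Aa went from 2.88 to 1.16, 1.26 and 1.01. Between the longest and the longest protein-coding transcript, only the length of H2-Aa changed among the genes of both ratios, from 3223 to 1128 bases. With coding length and without division, the ratio of H2-Oa to H2-Ob went from 0.396 to 0.241 and 0.199, and that of H2-DMb1 to H2-Ob from 12.5 to 7.63 and 6.57. Among genes with a mean of at least 10 in place of genes above 0, the percentile per kilobase moved for 4 members, H2-Oa, Ciita, Cd80 and Cd86, as fewer low genes stand below them, and by mean for 4, H2-DMa (38.7), H2-Oa (1.87), Cd80 (17.6) and Cd86 (34.5). The other 20 values of ratios under alternatives stayed within a factor of 1.5. Of the ranks among the members, 20 of 30 under alternatives were kept, with Cd74 at rank 1, H2-DMb1 at rank 5, Cd80 at rank 9 and H2-Oa at rank 10 under each. With a limit of 100 in place of 10, 0 of 4 other class II chains and 1 of 7 T cell genes remained above it. Of the markers, 2 of 7 for dendritic cells and 0 of 5 for B cells did. These counts stand beside 48.2% of all genes above 0. With a limit of 1 there were 5 of the 6 other costimulatory ligands, beside 86.2% of all genes above 0.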
